A study of Saccharomyces cerevisiae with 5 samples.

Results

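The SMC5-SMC6 complex of budding yeast was followed through the deletion strains of its genes, in 2 pools of heterozygous strains whose barcodes were read on 5 two-colour tag arrays. The genes were picked by name, from a list of 8 complex members, because NSE4 was negative on the mixed array under every choice of reference arrays. Spots were named for 7 of the 8 genes, and SMC6 (YLR383W) was not analysed here. NSE5 had 2 tag sets, so the 7 genes gave 8 strains and 16 tags among the 5444 strains and 10888 tags of the collection. Each member tag rested on 1 spot.

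The groups were 1 array of Pool A against Pool B (the mixed array), 1 array of Pool B against itself and 3 arrays of Pool A against itself. The last 4 are self-self arrays, called the Pool B array and the Pool A arrays. All strains in both pools were heterozygous deletions, each lacking 1 copy of a gene and carrying an upstream and a downstream barcode, the UPTAG and the DNTAG. Pool A carried the Cy3 dye and Pool B the Cy5 dye on the mixed array, with no dye-swapped array analysed here. Per the labels, 94 strains were put into the pools in unequal amounts, further diluted in Pool A by steps of 0.33 to 5 log2 units or left out of it, and the remaining strains in equal amounts. Whether a complex member was among the 94 is not given in the labels. The barcodes were amplified from genomic DNA of pooled cells by PCR over 50 cycles. No label says whether separate cultures or DNA preparations stand behind the 3 Pool A arrays, so the spread behind the p-values is that of these arrays and may be technical.

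SMC complexes are rings built on a pair of long coiled-coil ATPases, and they hold or fold DNA. Smc5 and Smc6 form the ring of this one, the kleisin Nse4 bridges their heads, and Nse1 and Nse3 bind Nse4. Mms21 is a SUMO ligase docked on Smc5, and Nse5 with Kre29 (also named Nse6) forms a regulatory pair that helps load the complex onto DNA. The complex is essential for growth in budding yeast and is known for the resolution of recombination intermediates and of stalled replication forks.

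Values are log2 ratios of the 2 channels, centred on each array's median over the named spots. The direction of the deposited ratio is not stated. A positive value on the mixed array was taken as more signal from Pool B, which is likely only, and with the opposite direction every sign on the mixed array would turn. A difference is the value on a lone array (the mixed or the Pool B one) minus the average over the 3 Pool A arrays, with its standard error (SE) from limma fitted over all strains or all tags. There was 1 mixed array and 1 Pool B array, so no difference had a repeat of its own, and the SE rests on the Pool A arrays (median SE of a strain 0.20, of a tag 0.25). The spots lie in 2 blocks that hold the 2 tags of each strain. Which block holds the UPTAGs is not given, so the tag in the first block is named the first tag here and its partner the second tag.

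NSE4 (YDL105W, chromosome IV) encodes the kleisin of the complex, and its first tag had a much larger negative difference than its second. The first tag read -3.14 on the mixed array and 0.64 on the Pool B array, against -0.60, -0.47 and -1.08 on the Pool A arrays. The mixed array was thus far below every self-self array, and Pool B lay above all 3 Pool A arrays. The second tag read 0.26 on the mixed array and 0.18 on the Pool B array, against 0.65, 1.29 and 0.73 on the Pool A arrays. For this tag the mixed array lay beside the Pool B array, and both lay below all 3 Pool A arrays. The differences between the mixed array and the Pool A mean were -2.43 ± 0.26 (SE) for the first tag and -0.64 ± 0.27 for the second.

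The mean of both NSE4 tags was -1.44 on the mixed array, against 0.09 ± 0.30 (SD, n = 3) on the Pool A arrays. Its difference of -1.53 ± 0.21, a 2.89-fold lower ratio, ranked 5 from the lowest among 5444 strains. These are the values NSE4 was picked on, so they carry no test. Against the Pool B array alone the difference of the first tag was -3.78 ± 0.32, while that of the second was 0.08 ± 0.33. Over the second tag block alone NSE4 ranked 760 from the lowest, against 5 over the first block.

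**Figure D1:**
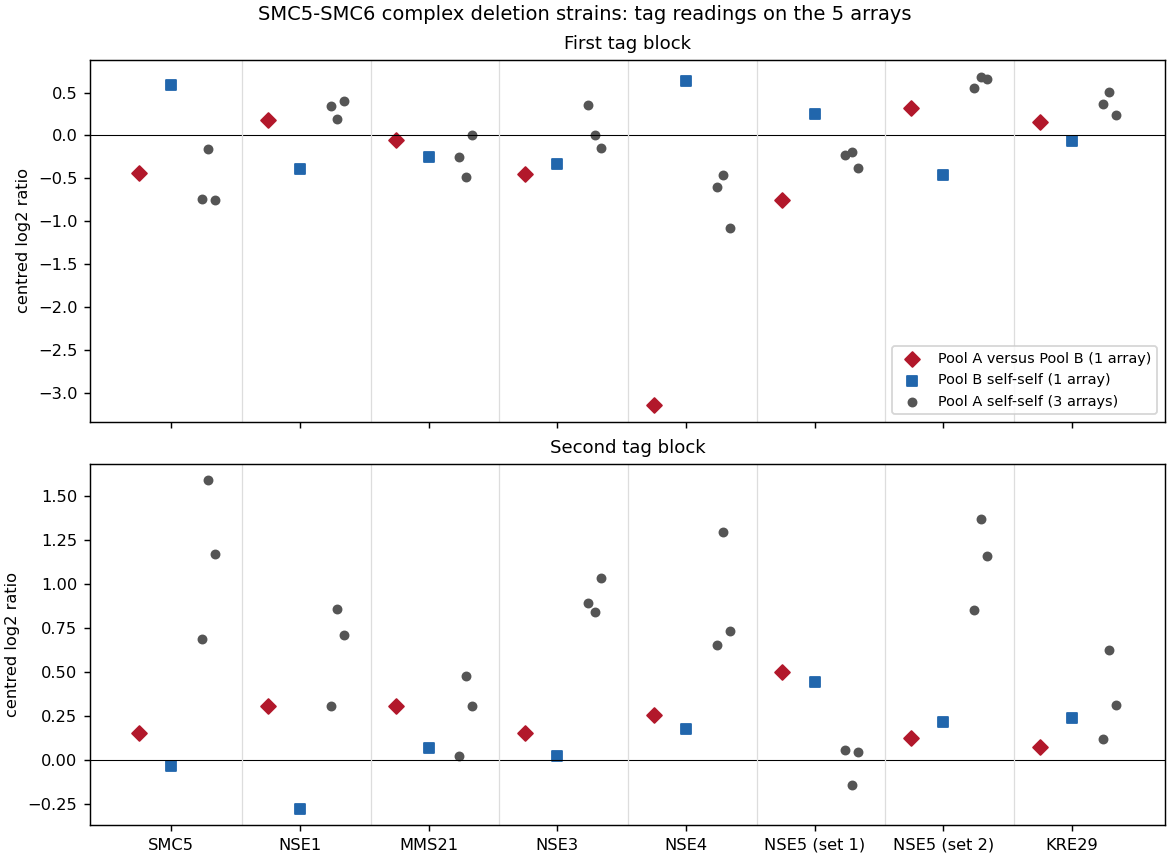
Centred log2 ratio (vertical axes) of the first tag (upper panel) and the second tag (lower panel) of the 8 SMC5-SMC6 complex strains, with 1 point per array. The first tag of NSE4 on the mixed array, at -3.14, is the one reading that stands apart, and 7 of the 8 second tags average above 0 on the Pool A arrays.

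The gap between the differences of the 2 NSE4 tags was 1.79 log2 units, and 1.29% of all strains had a gap as large (median over all strains 0.41). In all, 21 strains had a first-tag difference of -2 or lower, a limit set after the values were seen. Their second tags had a median difference of -0.25, and 3 of the 21 had a second tag at -1 or lower. Their first tags had a median of -2.68 on the mixed array, of 0.35 on the Pool B array and of -0.49 on the Pool A arrays. The first tag was above 0 on the Pool B array in 13 of these 21 strains, against 29.7% of all first tags.

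The 5 strains most like NSE4 were picked by the root mean square difference over 10 values, the 2 tags on the 5 arrays, so their shared shape is fixed by the choice. DDP1 (YOR163W), a polyphosphate phosphatase gene, was nearest at 0.29 log2 units, and its first tag read -2.71 on the mixed array, 0.25 on the Pool B array and -0.53 on average on the Pool A arrays. YDL218W (0.31), BUD13 (0.34), RSB1 (0.36) and LCB4 (0.37) followed. BUD13 encodes a pre-mRNA splicing factor and LCB4 a sphingoid base kinase. In these 5 strains the first-tag difference ran between -2.21 in YDL218W and -2.03 in RSB1, and the second-tag difference between -0.89 in BUD13 and -0.22 in DDP1. The same measure ran from 0.89 for SMC5 to 1.38 for the second NSE5 tag set among the other complex members, with a median of 1.14 over all other strains.

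**Figure D2:**
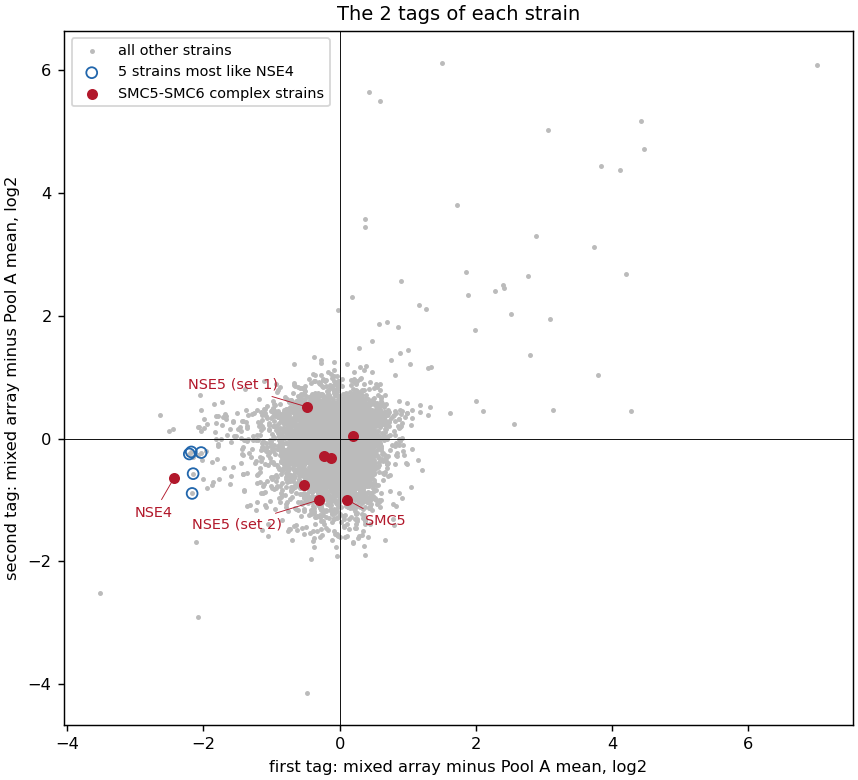
Difference of the first tag (horizontal axis) and of the second tag (vertical axis) between the mixed array and the Pool A mean, in log2 units, for all 5444 strains. NSE4 lies at -2.43 and -0.64 beside the 5 strains most like it (open circles), apart from the other 7 complex strains (filled circles).

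NSE3 and NSE1 encode the MAGE-domain and RING-domain proteins that bind the kleisin. NSE3 (YDR288W, chromosome IV) averaged -0.15 on the mixed array and -0.16 on the Pool B array, against 0.62, 0.42 and 0.44 on the Pool A arrays. Both lone arrays lay below all Pool A arrays by the same amount. The difference was -0.64 ± 0.19 for the mixed array, and -0.65 ± 0.19 for the Pool B array (limma adjusted p = 0.018). Its second tag carried the larger share, with -0.77 ± 0.24 on the mixed array and -0.90 ± 0.24 on the Pool B array, beside -0.52 ± 0.26 and -0.41 ± 0.26 for the first tag. Both channels of the Pool B array held the same pool.

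NSE1 (YLR007W, chromosome XII) averaged 0.24 on the mixed array and -0.34 on the Pool B array, against 0.33, 0.53 and 0.55 on the Pool A arrays. Here the mixed array lay just below the Pool A arrays and the Pool B array well below them. The differences were -0.22 ± 0.19 for the mixed array and -0.80 ± 0.19 for the Pool B array (limma adjusted p = 0.00513). Both NSE1 tags were lower on the Pool B array, by differences of -0.71 ± 0.24 in the first (limma adjusted p = 0.041) and -0.90 ± 0.26 in the second (limma adjusted p = 0.0163).

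SMC5 (YOL034W, chromosome XV), an ATPase gene of the ring, had tags that leaned opposite ways. Its first tag read -0.44 on the mixed array and 0.59 on the Pool B array, against -0.74, -0.16 and -0.76 on the Pool A arrays. Its second tag read 0.15 on the mixed array and -0.03 on the Pool B array, against 0.69, 1.59 and 1.17 on the Pool A arrays. On the mixed array the first tag lay inside the Pool A range and the second below it. The second tag differed by -0.997 ± 0.29 on the mixed array, and the first by 0.11 ± 0.27. On the Pool B array the tags changed in opposite directions, by 1.15 ± 0.27 in the first and by -1.18 ± 0.29 in the second. The mean of both therefore hid them, at -0.02 ± 0.23 for the Pool B array (limma adjusted p = 0.965) and at -0.44 ± 0.23 for the mixed array.

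NSE4 and SMC5 shared the signs of their tags on the Pool A arrays, and these signs were the common ones. Over all strains 71.0% of first tags averaged below 0 there and 71.5% of second tags above 0. In both strains the first tag was below 0 on all 3 Pool A arrays and above 0 on the Pool B array. The first tag of the first NSE5 set did the same. Of all first tags 29.7% were above 0 on the Pool B array, and the share with both signs together is not given here. In NSE4 and SMC5 the second tag was above 0 on all 3 Pool A arrays, while on the Pool B array it read 0.18 in NSE4 and -0.03 in SMC5. They parted on the mixed array, where the first tag of SMC5 stayed near its Pool A values and that of NSE4 did not.

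MMS21 (YEL019C, chromosome V), the SUMO ligase gene, had means on both lone arrays within the Pool A range. How many of all strains did so is not given here, so nothing is read from it. It averaged 0.13 on the mixed array and -0.09 on the Pool B array, against -0.12, -0.01 and 0.15 on the Pool A arrays. The differences were 0.12 ± 0.19 for the mixed array and -0.10 ± 0.19 for the Pool B array (limma adjusted p = 0.753). The smallest difference called among all strains on the mixed array was 0.62. That size is not a detection limit for MMS21, and a small difference in MMS21 could have been missed.

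NSE5 (YML023C, chromosome XIII) and KRE29 encode the loader pair. The 2 NSE5 tag sets, neighbours on the array, did not read alike. The first set averaged -0.12 on the mixed array and 0.34 on the Pool B array, against -0.09, -0.17 and -0.17 on the Pool A arrays. The second set averaged 0.22 on the mixed array and -0.13 on the Pool B array, against 0.70, 1.03 and 0.91 on the Pool A arrays. On the Pool A arrays the second set thus lay above the first on every array.

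The sets also differed in their changes. For the mixed array the difference was 0.02 ± 0.19 in the first NSE5 set, where the tags opposed each other (-0.48 ± 0.24 and 0.52 ± 0.24). It was -0.65 ± 0.20 in the second set, with -0.31 ± 0.24 in the first tag and -1.002 ± 0.26 in the second. For the Pool B array it was 0.49 ± 0.19 in the first set (limma adjusted p = 0.0677) and -1.004 ± 0.20 in the second (limma adjusted p = 0.000967). Both tags of the second set were called on the Pool B array, at -1.10 ± 0.24 and -0.91 ± 0.26. Whether the sets mark separate strains is not given in the sources used here, and the difference between them was not tested.

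KRE29 (YER038C, chromosome V) averaged 0.11 on the mixed array and 0.09 on the Pool B array, against 0.24, 0.57 and 0.28 on the Pool A arrays. Both lone arrays lay below the Pool A arrays, by differences of -0.25 ± 0.20 for the mixed array and -0.27 ± 0.20 for the Pool B array (limma adjusted p = 0.334). Its tags lay closest together of all members, at -0.22 and -0.28 on the mixed array.

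**Figure D3:**
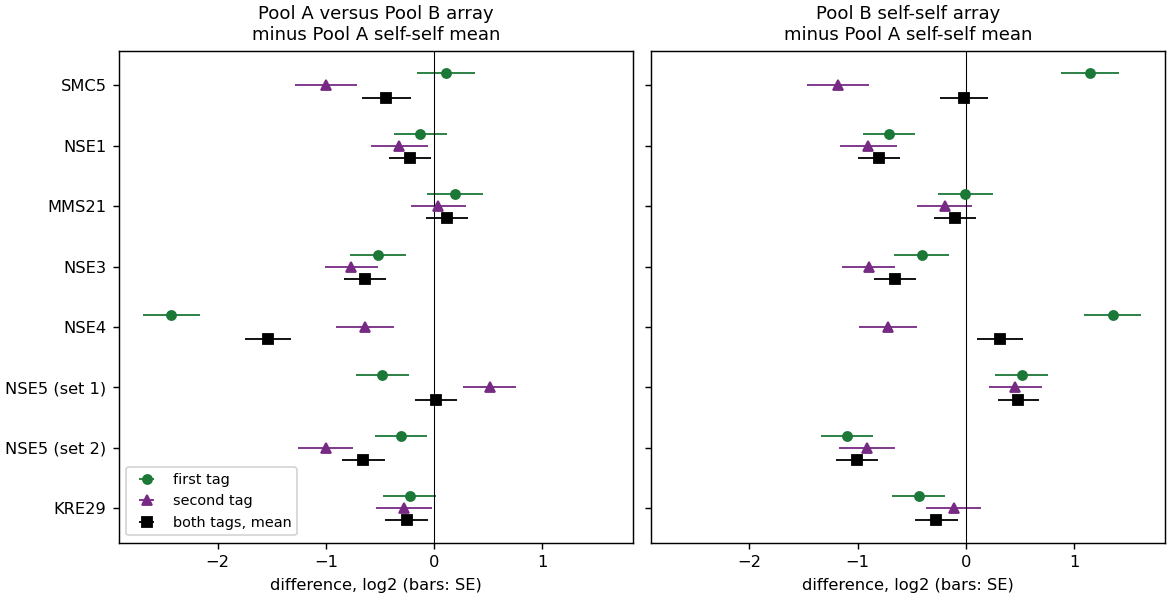
Difference from the Pool A mean in log2 units (horizontal axis, bars are SE) of the mixed array (left panel) and of the Pool B array (right panel) for the first tag, the second tag and their mean in each complex strain. NSE3 and KRE29 sit at nearly the same place in both panels, while the first tag of NSE4 is at -2.43 on the left and 1.36 on the right.

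Across the complex, limma called 3 of the 8 strains on the mixed array (NSE4, NSE3 and the second NSE5 set), all negative, where a call is an adjusted p under 0.05. Over all strains 7.38% were called, 5.84% negative and 1.54% positive, and NSE4 was picked on this contrast, so nothing is read from the count. The calls of NSE3 and the second NSE5 set were lost with most other settings. Their sizes moved less than the calls in some of these, at -0.68 for NSE3 and -0.58 for the second NSE5 set without replicate 2, and at -0.67 and -0.64 without replicate 3. Without Pool A replicate 2 and without replicate 3 only NSE4 was called. Without replicate 1 NSE4 and the second NSE5 set were. With all 4 self-self arrays as the reference NSE4 alone was called, where 0.606% of all strains were (0.11% negative). With the Pool B array alone as the reference, NSE4 alone was called again, where 7.68% of all strains were (5.2% negative), and the other 2 differences became 0.01 ± 0.24 for NSE3 and 0.35 ± 0.24 for the second NSE5 set. The median difference of the 8 strains was -0.35, against -0.06 over all strains. This median includes NSE4, so nothing is read from it either. Among the strains other than NSE4 the middle difference was that of KRE29, at -0.25. By tag, 3 of 16 were called on the mixed array, all negative, against 8.4% of all tags (6.53% negative and 1.87% positive). They were the first tag of NSE4 and the second tags of SMC5 and of the second NSE5 set. With all 4 self-self arrays as the reference these 3 tags lost their calls, where 0.661% of all tags were called. Against the Pool B array alone, where 8.83% of all tags were called, the first tag of NSE4 kept its call, and the second tags became 0.18 ± 0.35 in SMC5 and -0.09 ± 0.31 in the second NSE5 set. The first tags of SMC5 (-1.04 ± 0.33) and of the first NSE5 set (-0.99 ± 0.30) were called there instead.

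The Pool B array, where both channels held one pool, gave 3 negative and 0 positive calls among the 7 strains other than NSE4. These were NSE1, NSE3 and the second NSE5 set. The share of all strains called in this comparison was 21.9%, with 13.3% negative and 8.54% positive. By tag, 6 negative and 1 positive of 14 were called, against 21.2% of all tags (13.3% negative and 7.89% positive). The median was -0.27 over the 7 strains, against -0.03 over all strains. This comparison shares its Pool A arrays with the mixed one. The Pool B array also carries another number prefix in its title than the other 4 arrays. What the prefix stands for is not given in the labels, so pool and prefix cannot be told apart. NSE4 itself differed by 0.32 ± 0.21 on the Pool B array, from 1.36 ± 0.26 in its first tag and -0.72 ± 0.27 in its second, given without a test.

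On the Pool A arrays, the mean departed upward from 0 in 5 of the 7 strains other than NSE4 and downward in 0. The second NSE5 set (0.88 ± 0.10 SE, limma adjusted p = 8.81e-08), NSE3 (0.50 ± 0.10, limma adjusted p = 0.000171) and NSE1 (0.47 ± 0.10, limma adjusted p = 0.00033) led, followed by KRE29 (0.36 ± 0.10) and SMC5 (0.30 ± 0.11). Of all strains 44.9% departed from 0, 24.3% upward and 20.6% downward. The calls of KRE29 and SMC5 were lost without Pool A replicate 2, which left 3 of the 7. In that setting 877 of all strains departed upward and 923 downward. The 3 strains called on the Pool B array were thus the 3 highest on the Pool A arrays, and the Pool A mean enters both comparisons. Their Pool B values themselves lay between -0.34 and -0.13, below 0.

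By tag, 8 of the 14 of these 7 strains departed upward and 1 downward, against 48.3% of all tags (25.7% upward and 22.5% downward). The second tags reached 1.15 ± 0.14 in SMC5, 1.13 ± 0.13 in the second NSE5 set and 0.92 ± 0.12 in NSE3, and the second tag of NSE4 averaged 0.89. Over all strains 71.5% of second tags and 29.0% of first tags averaged above 0 on the Pool A arrays. On the mixed array these high second tags read near 0, at 0.15 in SMC5, 0.12 in the second NSE5 set, 0.15 in NSE3 and 0.26 in NSE4. They were named for being high on the Pool A arrays. Over all strains the second tag on the mixed array followed the Pool A mean with a slope of 0.37, so nothing is read from the lower values. The second tag of 6 of the 8 strains read nearer to the Pool B array than to the Pool A mean on the mixed array, against 56.5% of all second tags. The first tag did so in 2 of 8, against 33.6% of all first tags. Across all 5444 strains, which share the arrays and are not replicates, the mixed array followed the Pool A mean with Pearson's r of 0.71 (Spearman's 0.75) in the first block and 0.31 (Spearman's 0.12) in the second.

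With each Pool A array in turn set against the other 2, limma called 0 of the 21 values of the 7 strains, against 0% of all strains on each array. Of the 21 values, 1 had an unadjusted p under 0.05. With a variance trend and robust fitting, 1 was called. The share of all strains called with that fitting is not given here, so nothing is read from it. The 21 differences ran from -0.49 to 0.63, both in SMC5, whose Pool A values spread most (SD 0.38, n = 3). NSE4 followed with an SD of 0.30. For comparison, the median SD of a strain over the Pool A arrays was 0.15.

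The neighbours of NSE4 in gene order on chromosome IV lay nearer to 0. On one side lay KIN28, MSS2 and PHO2, and on the other QRI7, QRI1 and POL3. Their differences ran from -0.16 ± 0.19 (MSS2) to 0.31 ± 0.20 (QRI7). Of these 6 strains 0 were called, against 7.38% of all strains, so nothing is read from the count. Their first tags differed by -0.19 to 0.42. KIN28 encodes the kinase of TFIIH and POL3 the catalytic subunit of DNA polymerase delta. Among the 10 strains on each side, the calls were RPN6 (-0.93 ± 0.21), PMT1 (1.26 ± 0.19) and PMT5 (3.81 ± 0.20), from 8 to 10 steps away. These were named after their values were seen.

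**Figure D4:**
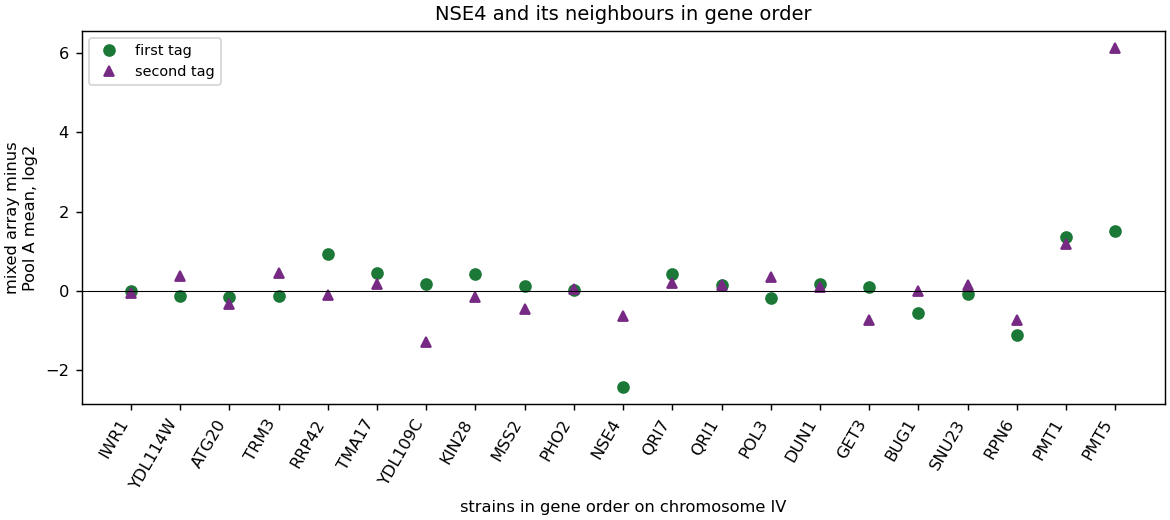
Difference between the mixed array and the Pool A mean in log2 units (vertical axis) of the first tag (circles) and the second tag (triangles) of NSE4 and of the 10 strains on each side of it in gene order. The first tag of NSE4, at -2.43, stands below those of its 6 nearest neighbours, which lie between -0.19 and 0.42.

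Genes related to the complex were set beside it, for which the share of all strains called on the mixed array (7.38%, with 5.84% negative and 1.54% positive) is the background. Cohesin, the SMC ring that holds sister chromatids, had 1 positive and 0 negative calls among 9 strains on the mixed array, with a median difference of -0.05. The call was its ATPase gene SMC1 (0.63 ± 0.19), while its partner SMC3 lay at -0.05 ± 0.19. SMC1 averaged 1.69 on the mixed array, 1.35 on the Pool B array and 1.06 on the Pool A arrays. Its tags differed by 0.29 (first) and 0.97 (second) on the mixed array. Against the Pool B array alone SMC1 differed by 0.33. Condensin, the ring that folds mitotic chromosomes, had 0 positive and 1 negative calls among 5 strains and a median of -0.56. The call was YCG1 (-1.004 ± 0.21, limma adjusted p = 0.0032), a regulatory subunit gene that differed by -0.82 on the Pool B array as well. The condensin ATPase gene SMC2 (-0.59 ± 0.19, limma adjusted p = 0.0619) and the kleisin gene BRN1 (-0.56 ± 0.19, limma adjusted p = 0.0804) were not called. Against the Pool B array alone, SMC2 differed by -0.84, BRN1 by -0.52 and YCG1 by -0.19.

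The SUMO pathway, in which MMS21 acts, had 0 calls by limma among 12 strains and a median of 0.05. ULP1 (-0.58 ± 0.19, limma adjusted p = 0.0644), a SUMO protease gene, lay farthest from 0, and the SUMO gene SMT3 lay at 0.42 ± 0.19. Partners in recombination and fork repair had 0 positive and 2 negative calls among 25 strains and a median of -0.15. The calls were CSM2 (-0.79 ± 0.20, limma adjusted p = 0.0125) and SHU2 (-0.73 ± 0.19, limma adjusted p = 0.0207), whose products work in the Shu complex. CSM2 differed by -1.49 on the Pool B array, and SHU2 by -0.27, a mean of tags that moved opposite ways. The first tag of SHU2 read -1.92 on the mixed array and -1.67 on the Pool B array, against -0.30 on average on the Pool A arrays. Its second tag read -0.21, 0.47 and -0.37 in the same order. Against the Pool B array alone, CSM2 differed by 0.70 and SHU2 by -0.46. The other Shu genes, PSY3 (0.09 ± 0.20) and SHU1 (-0.11 ± 0.19), were not called. The share of 2 in 25 lay near the 7.38% of all strains called, and the median over all strains was -0.06.

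**Figure D5:**
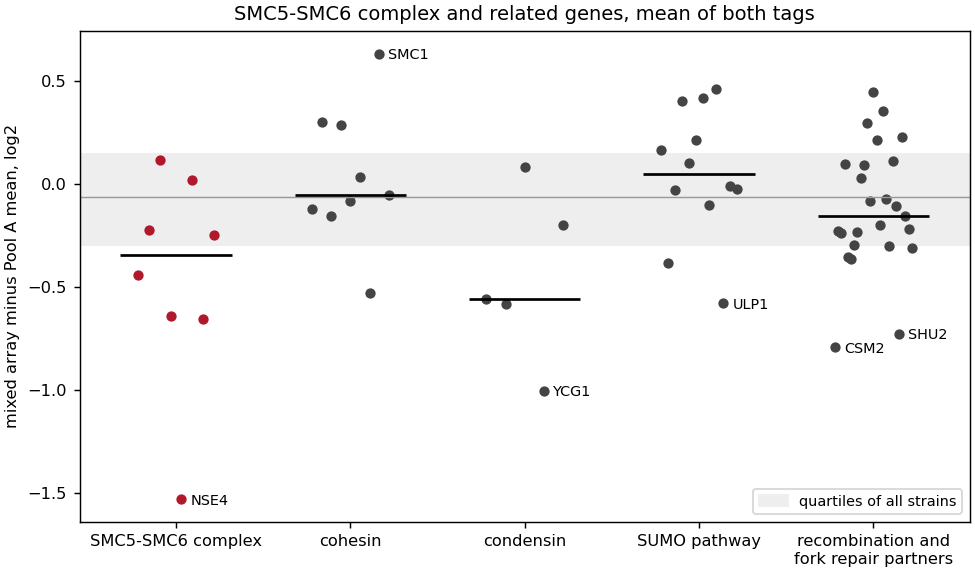
Difference between the mixed array and the Pool A mean in log2 units (vertical axis), mean of both tags, for the SMC5-SMC6 complex and 4 related gene lists, with 1 point per strain, a black line at each list's median and the quartiles of all strains shaded. NSE4 at -1.53 is lower than any other strain shown, followed by YCG1 at -1.004.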

How the data were processed

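The values analysed were the log2 ratios that the authors deposited, 1 per spot, for 22575 spots on 5 arrays. Base 2 was inferred: undoing it returned ratios with 3 decimals for 100% of the ratios under 1.5. The sources used here do not say how the authors corrected or normalized the scans. The platform annotation named 18794 spots, and a RefSeq table of assembly R64 gave current names and gene order. Arrays were centred on the median of named spots (from -0.77 to 0.07), spots of a tag averaged, and tags averaged to strains. limma 3.58.1 (R 4.3.3; lmFit and eBayes) was fitted with 3 groups, two-sided, with Benjamini-Hochberg adjustment over all 5444 strains or 10888 tags, after a test on simulated data. The lone arrays add no spread and are assumed to vary like the Pool A ones. The Pool B array, with 1 pool in both channels, had many strains called, while no lone Pool A array had any, in a fit with less replication. The p-values of the lone arrays thus measure the Pool A spread alone and may be too small. The simulated arrays were all drawn with the Pool A spread, so that test could not check this. Precision is limited by how few arrays there were. The members, gene lists, naming rules and alternatives were chosen with earlier results of these data known. All 8 members, the 5 strains most like NSE4, its 3 neighbours on each side, and called or farthest list members were named by rule. The other named strains were chosen after their values were seen.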

Additional observations from a re-analysis of the deposited data

How the results depend on the processing

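NSE4 was picked for being negative on the mixed array, so its sign and calls under the 13 alternatives carry no test. Its difference was -1.85 against the Pool B self-self array alone, -1.96 without centring (the median of all strains moved to -0.49), -1.05 with quantile normalization, -2.43 in the first tag block and -0.64 in the second, and from -1.66 to -1.37 with a Pool A array left out. The 3 complex strains called on the mixed array became 1 with all 4 self-self arrays as the reference, with the Pool B array alone, with uncentred arrays, with arrays brought to equal spread, with quantile normalization and in the first tag block, and from 1 to 2 with a Pool A array left out. Against the Pool B array alone NSE3 turned to 0.0117 and the second NSE5 set to 0.35.

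The Pool A departures numbered 1 without centring and from 3 to 5 with an array left out. The lone Pool A arrays gave 5 calls without centring and 1 with the variance trend. The share of all strains called on the lone Pool A arrays in these settings is not given here. For the Pool B array, SMC5 turned to 0.048 with blocks centred separately, 0.067 with quantile normalization and 1.15 in the first tag block, and ran from -0.18 to 0.19 with an array left out. The first NSE5 set turned to -0.21 without centring. On the Pool A arrays SMC5 was -0.55 in the first tag block, and MMS21 was -0.067 without centring, -0.0047 with scaling, -0.035 with quantile normalization and -0.25 in the first tag block, and ran from -0.062 to 0.073 with an array left out. The cause of these changes was not tested.

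Over all strains, the 318 negative calls on the mixed array became 6 with all 4 self-self arrays, 196 without centring, 166 with scaling, 190 with quantile normalization, 132 without Pool A replicate 2 and 478 in the second tag block. The 84 positive ones became 27 with all 4 self-self arrays, 135 with the Pool B array alone, 31 without centring and 133 in the second tag block. On the Pool B array the 725 negative and 465 positive calls became 1894 and 5 without centring (the median of all strains moved to -0.72) and 446 and 285 without replicate 2. The positive ones were also 754 with blocks centred separately, 219 with scaling, 793 with quantile normalization, 215 without replicate 3 and 278 in the second block. On the Pool A arrays the 1122 negative and 1321 positive calls became 402 and 432 without centring and 2368 and 799 in the first block (median of all strains -0.20). The negative ones were also 585 without replicate 3 and 160 in the second block (median 0.18), and the positive ones 877 without replicate 2. No paired analysis was possible because the mixed and the Pool B groups held a lone array each.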
